A study of Mus musculus with 16 samples.

Results

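Ground-state mouse embryonic stem cell lines that were grown with a blocker of the Activin and Nodal receptors were compared with primed epiblast stem cell lines that were grown in Activin A. The comparison was made of the 4 arrays titled as 2iSB lines and the 4 titled as mEpiSC lines, 8 of the 16 arrays of the series, each hybridised with RNA of 1 line. All lines came from 129/Ola mice. The 2iSB_LIF lines were derived from pre-implantation embryos and kept in 2i (which here stands for inhibitors of the kinases MEK and GSK3), the inhibitor SB431542 and the cytokine LIF, and the labels call them ground state. SB431542 blocks the type I receptors for Activin, Nodal and TGF-beta. EpiSC lines were derived from the epiblast of E6.5 embryos, maintained with bFGF and Activin A, and described as primed. The groups therefore differ in embryonic stage of origin as well as in medium, and stage and medium cannot be told apart. The other 8 arrays hold 4 lines in 2i with LIF but no SB431542 (2i_LIF) and 4 lines in serum with LIF (LIF_serum), both from pre-implantation embryos. They are used here where a level needs a reference.

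Pluripotency in the mouse embryo spans a naive state, before implantation, and a primed state, in the epiblast about to gastrulate. Nodal and Activin bind type II and type I receptors, which phosphorylate Smad2 and Smad3. These enter the nucleus with Smad4 and FoxH1 and switch on targets that include the pathway's own inhibitors Lefty1 and Lefty2. FGF acts through the kinases MEK and ERK, which induce immediate early transcription factors and feedback phosphatases of the DUSP family. Primed lines depend on both signals, whereas naive lines self-renew when MEK is blocked.

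Levels are log2 of the array signal less the array's own 75th percentile, so that 0 is the level of the probe at that percentile and 1 unit is a 2-fold difference. A difference is the mean of the 4 2iSB_LIF arrays minus the mean of the 4 EpiSC arrays with its standard error, and adjusted p-values come from limma with Benjamini-Hochberg adjustment over the 15258 genes tested. A gene was called, and is said to have risen or fallen, at an adjusted p under 0.05 and at least 2-fold. Levels of different probes are not compared with each other. The labels name separate lines but not the embryos, so the p-values measure a spread between lines. That spread, and each standard error, is pooled over every group of the series, 2i_LIF and LIF_serum included. In bulk RNA, fewer cells of a type and less RNA per cell cannot be told apart.

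The EpiSC arrays were close to each other (Pearson r across genes 0.990 to 0.995), the 2iSB_LIF arrays less so (0.957 to 0.985), and the groups were far apart (0.784 to 0.809). Of the probes, 52.95% to 63.92% were well above background on these arrays. All EpiSC arrays lay on slide 2, with 2iSB_LIF array 3, while 2iSB_LIF arrays 1, 2 and 4 lay on slide 1. Within slide 2, where 2iSB_LIF has 1 array, 5913 genes were called against 5512 in all, and 4844 of the 5512 kept their call. There the lone 2iSB_LIF array is assumed to vary like the arrays of the other groups. Passage numbers were 24, 24, 24 and 28 in EpiSC lines and 22, 17, 19 and 24 in 2iSB_LIF lines. The cell type label reads ESC in every sample, EpiSC lines included.

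The markers given for this comparison separated the groups completely. Esrrb, a nuclear receptor without known ligand that sustains naive self-renewal, stood at −2.14, −2.41, −2.58 and −2.50 on EpiSC arrays 1 to 4 and at 6.61, 6.55, 6.93 and 6.61 on 2iSB_LIF arrays 1 to 4, a rise of 9.08 ± 0.19 (SE, adjusted p = 4.1e-14). Lefty2, a secreted Nodal inhibitor and Smad2/3 target, stood at 6.50, 6.53, 6.49 and 6.82 in EpiSC and at −2.10, −1.75, −1.90 and −1.84 in 2iSB_LIF, a difference of −8.48 ± 0.55 (adjusted p = 7.2e-09). Both genes were therefore near their group mean on every array, with a gap between groups many times the spread within them. Wt1, a zinc finger factor best known from kidney and mesothelium, read 3.66, 4.47, 4.16 and 3.90 in EpiSC against −4.58, −3.90, −4.51 and −3.46, a difference of −8.16 ± 0.41 (adjusted p = 4.5e-10). Fosb, a partner of Jun in the AP-1 factor, read 4.57, 4.93, 5.01 and 5.78 against −2.74, −2.25, −3.79 and −1.04, a difference of −7.53 ± 0.53 (adjusted p = 1.7e-08). For Fosb the 2iSB_LIF lines were spread over more than 2 units, and the highest of them was still far below the lowest EpiSC line.

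**Figure D1:**
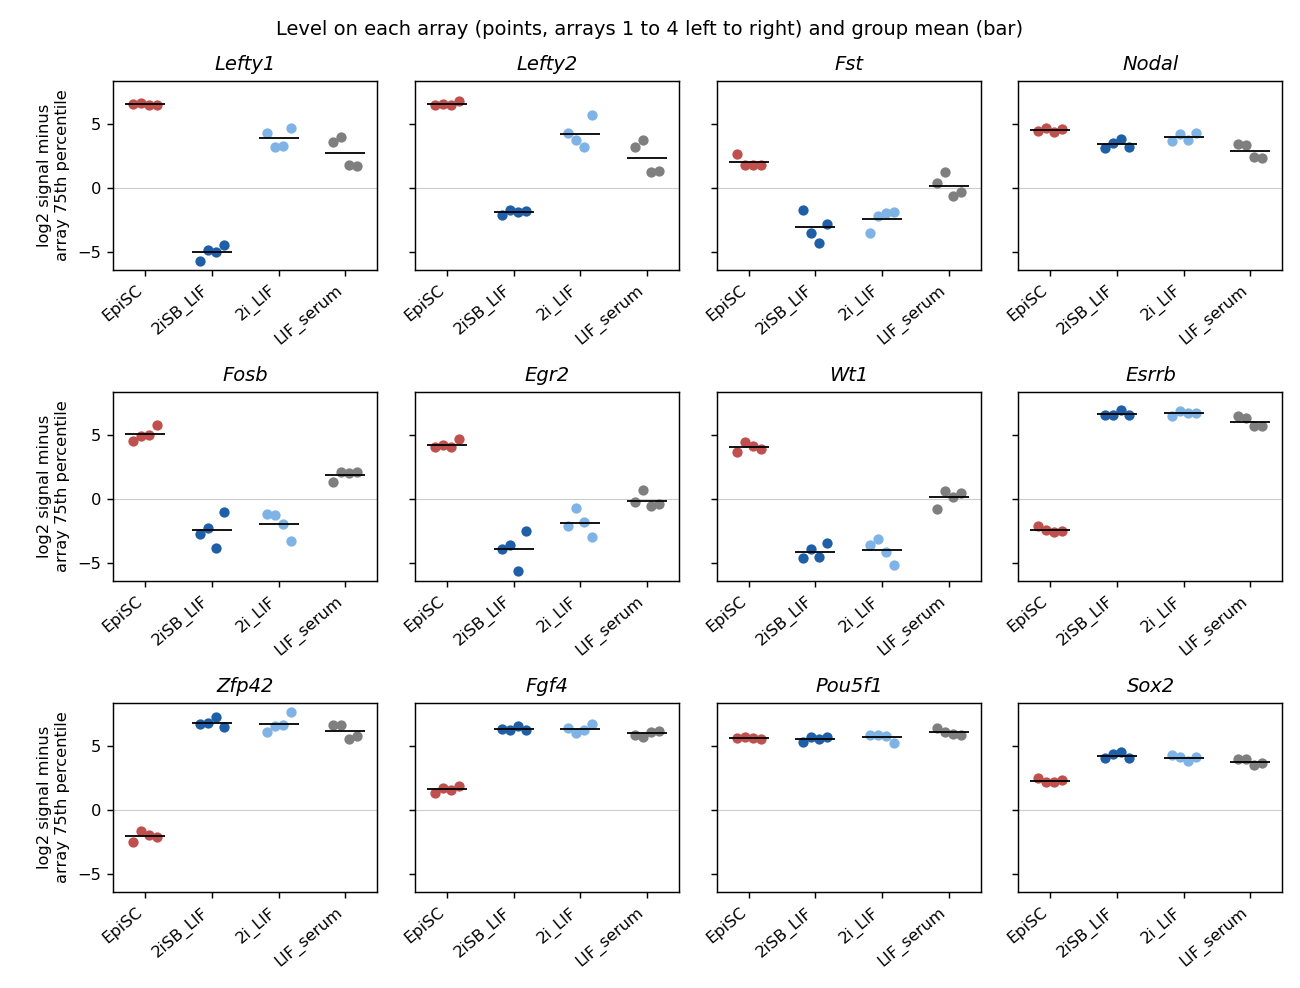
Log2 signal less the array's 75th percentile (y axis) of 12 genes on each of the 16 arrays, by group (x axis); points are arrays and bars are group means. Lefty1 and Lefty2 have their lowest 4 points in 2iSB_LIF, the points of 2i_LIF and 2iSB_LIF overlap for Fosb, Egr2 and Wt1, and Pou5f1 lies between 5.37 and 5.75 in both EpiSC and 2iSB_LIF.

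In all, 5512 of the 15258 genes tested (36.1%) were called, 2389 higher (15.7%) and 3123 lower (20.5%) in 2iSB_LIF, and for 8312 genes (54.5%) the 2 groups did not overlap. The median difference of all genes was −0.05. When arrays were centred on their medians instead, that median moved to −0.57 and the calls to 1582 higher and 4848 lower (24.6% of the calls higher, against 43.3%), so the balance of rises and falls depends on the scaling. All counts in gene lists are to be read against these shares.

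The largest rise measured in both groups was that of Dppa5a. Dppa5a, an RNA-binding protein of pluripotent and germ cells, rose from −3.43, −3.20, −2.97 and −3.51 to 7.67, 7.91, 8.11 and 7.65, by 11.11 ± 0.16 (adjusted p = 7.6e-16). After it came Tuba3a (10.85) and Tuba3b (10.07), near-identical testis tubulins whose probes may read both genes, the homeobox gene Rhox2h (9.67), Phf11d (9.08), Zfp42 or Rex1 (8.88), Mageb16 (8.83) and Tdh (8.53). Pigp, of the GPI-anchor transferase, rose by 10.63 on its brightest probe, while its other probe read −0.47, so its probes disagree. Among genes above background in 2iSB_LIF and on no EpiSC array, the ferritin-like Fthl17-ps1 was at least 6310-fold higher and Fthl17e at least 3490-fold, the retrogene Rpl10l at least 5000-fold, the Akt co-activator Tcl1 at least 2400-fold and Triml2 at least 1660-fold. They were not particular to 2iSB_LIF, since Rpl10l read 6.15 to 7.27 in 2i_LIF and 5.02 to 5.51 in LIF_serum, and Tcl1 5.44 to 6.42 and 3.86 to 5.11. Such bounds set the bright group's mean against the dim arrays' background floor or, where that is higher, their own signal. Members of the Fthl17, Rhox and Tuba3 families share sequence, and their shares cannot be told apart here.

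The largest measured falls, besides Lefty2, Wt1 and Fosb, were the collagen chain Col1a1 (−8.45), the secreted kinase Pkdcc (−7.59), the actin-binding Tagln (−7.46), the sulfotransferase Chst1 (−7.22), the ERK phosphatase Dusp2 (−7.22), keratin Krt8 (−7.11) and Rgs2 (−7.02, with another probe at −3.13). Actc1, the cardiac actin, stood at 5.49, 5.27, 4.95 and 4.93 in EpiSC and was above background on no 2iSB_LIF array, at least 1290-fold lower. Thbs1 (at least 1120-fold), the protease Prss23 (at least 684-fold), the proteoglycan Dcn (at least 584-fold) and the interferon-induced GTPase Gbp2 (at least 494-fold) were the next largest bounds. Several of these are matrix and contractile genes, and they are taken up with the fibroblast markers.

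**Figure D2:**
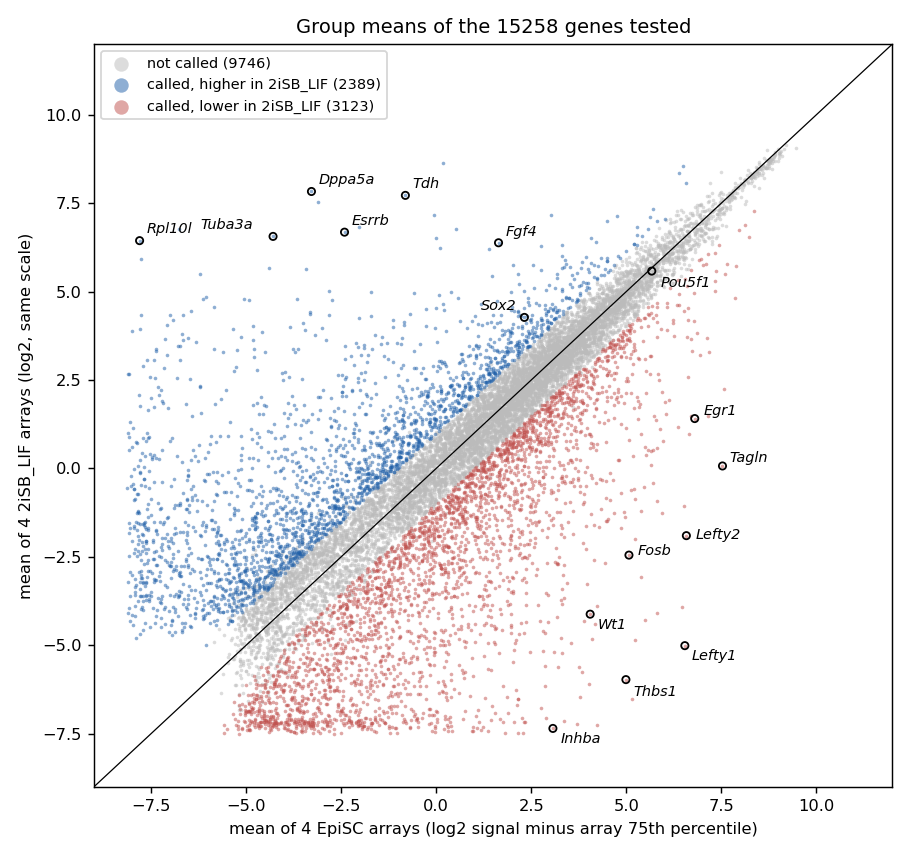
Mean log2 level in 2iSB_LIF (y axis) against EpiSC (x axis), 4 arrays each, for the 15258 genes tested, on the scale of signal less the array's 75th percentile; blue and red points are genes called higher and lower in 2iSB_LIF, and the line marks equal levels. Esrrb, Dppa5a and Rpl10l lie far above the line, Lefty1, Thbs1 and Inhba far below it, and Pou5f1 on it.

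Nodal and Activin signalling was the input that the media set in opposite directions. Of 36 tested members of a 38-gene list, 21 fell and 2 rose, with a median of −1.49. Of the 36, 4 were above background on no 2iSB_LIF array and 3 on 1 to 3 of them, so these passed the filter through EpiSC alone. On probes above background on all 8 arrays 29 members remain, 14 lower and 2 higher, with a median of −1.02. Minus EpiSC, the median of the 36 was also negative for the other groups, at −1.29 for 2i_LIF and −1.13 for LIF_serum. All 5 extracellular antagonists fell. Lefty1 went from 6.55, 6.65, 6.50 and 6.48 in EpiSC to −5.72, −4.84, −5.03 and −4.47, or −11.56 ± 0.49 (adjusted p = 7.1e-11), with 1 of 4 2iSB_LIF arrays above background, so that the size of its fall rests partly on background values. Cer1, which binds Nodal and BMP, was at 3.22, 0.60, 1.44 and 1.76 in EpiSC and above background on no 2iSB_LIF array (at least 122-fold lower). The activin-binding follistatin, Fst, fell from 2.67, 1.83, 1.80 and 1.77 to −1.74, −3.51, −4.30 and −2.82, by 5.11 on the log2 scale. Its relative Fstl3 differed by −2.04.

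The feedback genes and targets fell in 6 of 7 cases, with a median of −3.73, or −2 with 2 members at their bounds. Pmepa1, a membrane protein that sequesters Smads, fell from 2.59, 2.31, 2.63 and 1.86 to −3.42, −4.16, −4.07 and −3.82 (−6.22 ± 0.71, adjusted p = 2.7e-06). The convertase Furin, which processes Nodal, differed by −1.99. Smad7, the inhibitory Smad, moved less, from 2.48, 2.65, 2.57 and 2.46 to 0.45, 1.40, 1.36 and 1.34 (−1.40 ± 0.38, adjusted p = 0.0054). The exception was Pcsk6, another convertase of Nodal, which rose from −1.23, −1.50, −1.55 and −1.45 to 3.92, 3.57, 3.75 and 3.65, by 5.15 ± 0.17 (adjusted p = 5.2e-12).

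Among the ligands, Nodal itself stayed well expressed in both groups. It read 4.47, 4.70, 4.41 and 4.59 in EpiSC and 3.13, 3.49, 3.86 and 3.20 in 2iSB_LIF, a fall of 1.12 on the log2 scale (SE 0.26, adjusted p = 0.0022). Within slide 2 its difference was −0.68, below the 2-fold minimum. The TGF-beta family ligand Gdf3 rose by 1.24, from 4.25, 4.38, 3.38 and 3.93 to 5.07, 5.08, 5.64 and 5.13, although it lost its call with arrays centred on the median and with passage as a covariate. Inhba, which encodes the subunit of Activin A, was at 3.24, 2.85, 3.65 and 2.53 in EpiSC and above background on no 2iSB_LIF array, at least 304-fold lower. Tgfb2 (−6.09), Tgfb3 (−4.34) and Tgfb1 (−2.60) fell as well. These ligands are also products of mesenchymal cells, and the fibroblast markers described further on fell between the same groups. The part of such cells in the ligands' differences was not tested.

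Between ligand and target, 0 of 2 co-receptors, 2 of 6 receptors and 3 of 8 transducers were called, beside 36.1% of all genes. Neither co-receptor was called, Tdgf1 (Cripto) reading 4.10, 4.15, 4.04 and 4.17 in EpiSC and 4.31, 3.76, 3.85 and 4.04 in 2iSB_LIF (−0.12 ± 0.15). Of 6 tested receptors, Tgfbr2 (−3.55, with another probe at −0.48) and Tgfbr3 (−2.50) fell, while Acvr1b, a target of SB431542 known as ALK4, differed by 0.24 ± 0.27. Smad2 differed by 0.06 ± 0.16, Smad3 by 0.39 ± 0.18 and Smad4 by −0.83 ± 0.18, none of them called. FoxH1, the DNA-binding partner of the Smads, fell from 2.11, 2.48, 2.36 and 2.13 to 1.30, 0.95, 1.16 and 0.58 (Foxh1, −1.27 ± 0.25, adjusted p = 0.00058), but not past 2-fold with slide as a block (−0.84).

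**Figure D3:**
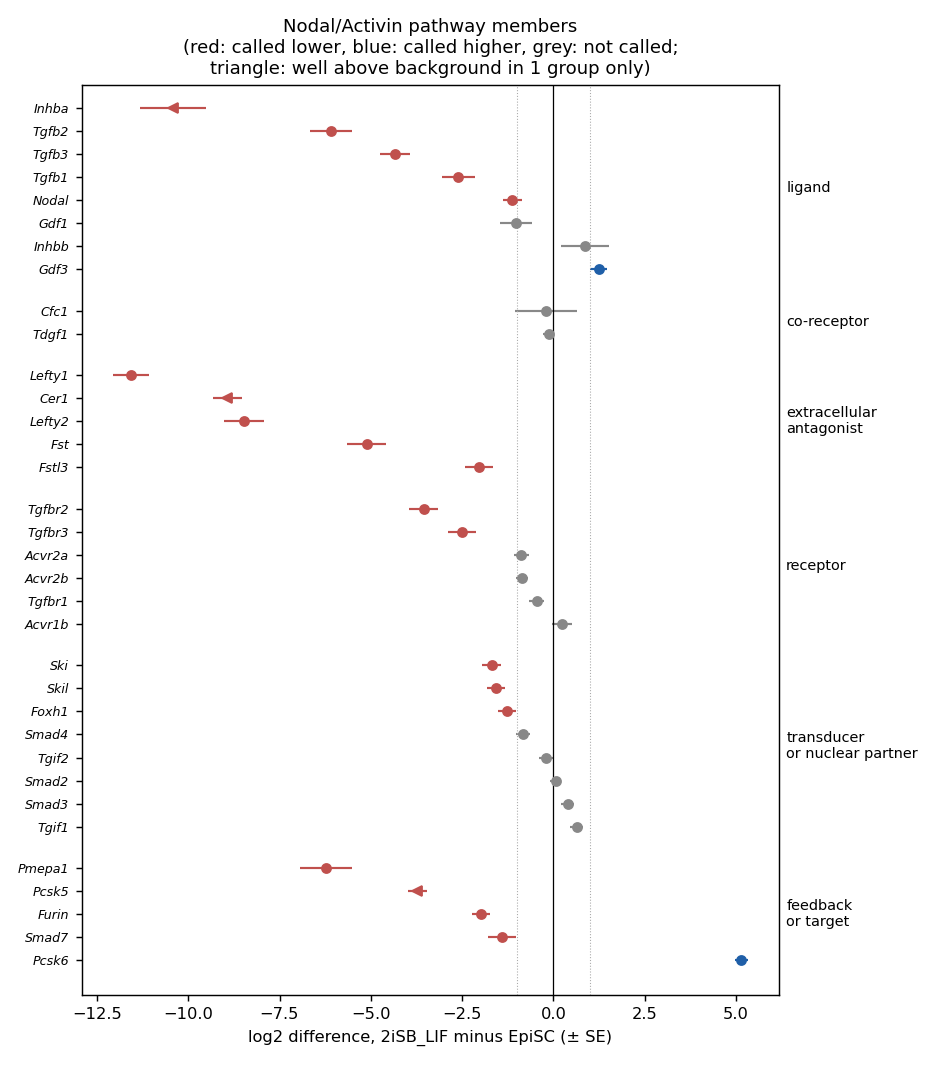
Log2 difference, 2iSB_LIF minus EpiSC, with its standard error (x axis) for 34 of the 36 tested members of the Nodal/Activin list, grouped by role (y axis); dotted lines mark 2-fold. Antagonists and feedback genes lie to the left, down to −11.56 for Lefty1, while Smad2, Smad3 and Tdgf1 lie near 0 and Pcsk6 alone exceeds 5.

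The 2i_LIF lines serve as the reference for the receptor blocker, since by the labels they share stage of origin and the other inhibitors with 2iSB_LIF and lack SB431542. Of the 15258 genes, 16 were called between these groups (0.105%), 3 higher (0.0197%) and 13 lower (0.0852%) in 2iSB_LIF. The filter looked at 2iSB_LIF and EpiSC only, so genes that passed it in neither were not tested, even where 2i_LIF showed them. Of 332 distinct list genes tested, 3 were among the 13 lower, Lefty1 and Lefty2 with them, and none among the 3 higher. Lefty1 read 4.27, 3.23, 3.25 and 4.72 on 2i_LIF arrays 1 to 4, and the 2iSB_LIF lines were lower by a difference of −8.88 ± 0.49 (adjusted p = 2.6e-07). Lefty2 read 4.29, 3.72, 3.22 and 5.72 in 2i_LIF (−6.13 ± 0.55, adjusted p = 0.00012). The highest 2iSB_LIF array was below the lowest 2i_LIF array for both genes. Lefty1 and Lefty2 kept the call under all 14 alternatives run for this comparison.

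The other Nodal targets named here were not called between 2iSB_LIF and 2i_LIF. Smad7 differed by −1.60 (adjusted p = 0.17) and Pmepa1 by −2.02 (adjusted p = 0.57). Nodal differed by −0.56 and Inhba, Cer1 and Pcsk6 by −0.04, −0.08 and −0.30. Inhba and Cer1 were below background in 2iSB_LIF, where a further fall could not be read. Against LIF_serum, where 6.86% of genes were called higher and 12.7% lower (19.6% in all), 13 of the 36 members were lower in 2iSB_LIF and 2 higher, with Lefty1 at −7.77 and Lefty2 at −4.28.

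FGF and ERK signalling was the other input that the media set apart, since EpiSC medium holds bFGF and 2i blocks MEK. Of 50 tested members of a 51-gene list, 32 fell and 4 rose, with a median of −1.79. Of the 50, 2 were above background on no 2iSB_LIF array and 8 on 1 to 3 of them, so these passed the filter through EpiSC alone. On probes above background on all 8 arrays 39 members remain, 22 lower and 3 higher, with a median of −1.13. Of the 18 target transcription factors, which include immediate early genes and ETS factors, 15 fell and 1 rose. Egr1 stood at 6.70, 6.86, 6.57 and 7.08 in EpiSC and at 2.20, 1.79, 0.05 and 1.61 in 2iSB_LIF (−5.39 ± 0.41, adjusted p = 3.6e-08). Its relative Egr2 went from 4.04, 4.19, 4.08 and 4.67 to −3.89, −3.58, −5.66 and −2.47 (−8.15 ± 0.56, with 3 of 4 2iSB_LIF arrays above background). Egr4 differed by −8.92 ± 0.83, with 2 of 4 arrays above background. The array of the lowest Egr1, Egr2 and Egr4 was 2iSB_LIF array 3, the one on slide 2.

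The AP-1 subunits showed the same direction. Fos fell from 5.40, 5.54, 5.45 and 6.20 to 0.51, 0.59, −0.61 and 1.51 (−5.15 ± 0.38, adjusted p = 2.4e-08). Jun went from 6.27, 6.13, 6.39 and 6.68 to 1.49, 0.59, 0.35 and 2.22 (−5.21 ± 0.58). Junb differed by −4.08 and Fosl1 by −5.83. Fosl2 differed by −8.19 on its brightest probe and by −1.14 on another. Atf3, a stress-induced factor, fell from 3.79, 4.31, 4.10 and 4.45 to −1.87, −1.87, −2.06 and −0.63. Myc stood at 2.36, 1.86, 1.94 and 1.58 in EpiSC and at −7.05, −2.80, −2.19 and −3.28 in 2iSB_LIF, and its difference was −5.77 ± 1.00, with 2iSB_LIF array 1 below background. Immediate early genes also respond to handling and stress of cells, which the labels do not describe, and the part of such handling was not tested.

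The ETS factors of the pathway moved both ways. Etv1 fell (−2.23), whereas Etv5 rose, from 5.68, 5.52, 5.54 and 5.53 to 6.21, 6.79, 7.23 and 6.88 (1.21 ± 0.20, adjusted p = 0.00011), a call that was lost with arrays centred on the median and with passage as a covariate. Etv4 read 2.47, 2.11, 2.28 and 1.78 against 2.25, 3.16, 3.12 and 1.95 (0.46 ± 0.34, not called), so its groups overlapped.

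Feedback inhibitors fell in 10 of 12 cases. Dusp6, the ERK phosphatase of the cytoplasm, went from 6.33, 5.95, 5.85 and 6.05 to 0.68, 1.71, 1.66 and 2.06 (−4.52 ± 0.39, adjusted p = 1.5e-07). Dusp2, a nuclear ERK phosphatase, went from 5.91, 6.41, 5.97 and 5.53 to −0.98, −1.65, −1.95 and −0.47 (−7.22 ± 0.39). Dusp5 differed by −5.07, with 2 of 4 2iSB_LIF arrays above background. Spry2, a Sprouty inhibitor of receptor signalling, differed by −1.82. Spry4 differed by −2.39 with an adjusted p of 0.047, and its call was lost without any one of EpiSC arrays 1 to 4 or 2iSB_LIF arrays 1, 2 and 3, where its difference kept its direction.

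Among the ligands 4 of 6 fell and 2 rose. Fgf5, the classic marker of the post-implantation epiblast, stood at 4.42, 3.72, 3.64 and 3.58 in EpiSC and at −7.56, −6.56, −5.57 and −3.32 in 2iSB_LIF (−9.59 ± 0.89), with 1 of 4 arrays above background. Fgf8 differed by −5.39 (its probes ran from −5.72 to −1.47) and Fgf15 by −4.91. Fgf4, the autocrine ligand of embryonic stem cells, went the other way, from 1.31, 1.73, 1.59 and 1.92 to 6.32, 6.31, 6.56 and 6.31 (4.74 ± 0.17, adjusted p = 1.7e-11). Fgfr1 fell by 1.13 and Fgfr4 rose by 2.10. For Fgfr1 the probes ran from −1.32 to 0.09, and the call was lost on the mean of its probes. The kinase Map2k1, or MEK1, was not called (−0.14 ± 0.17).

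**Figure D4:**
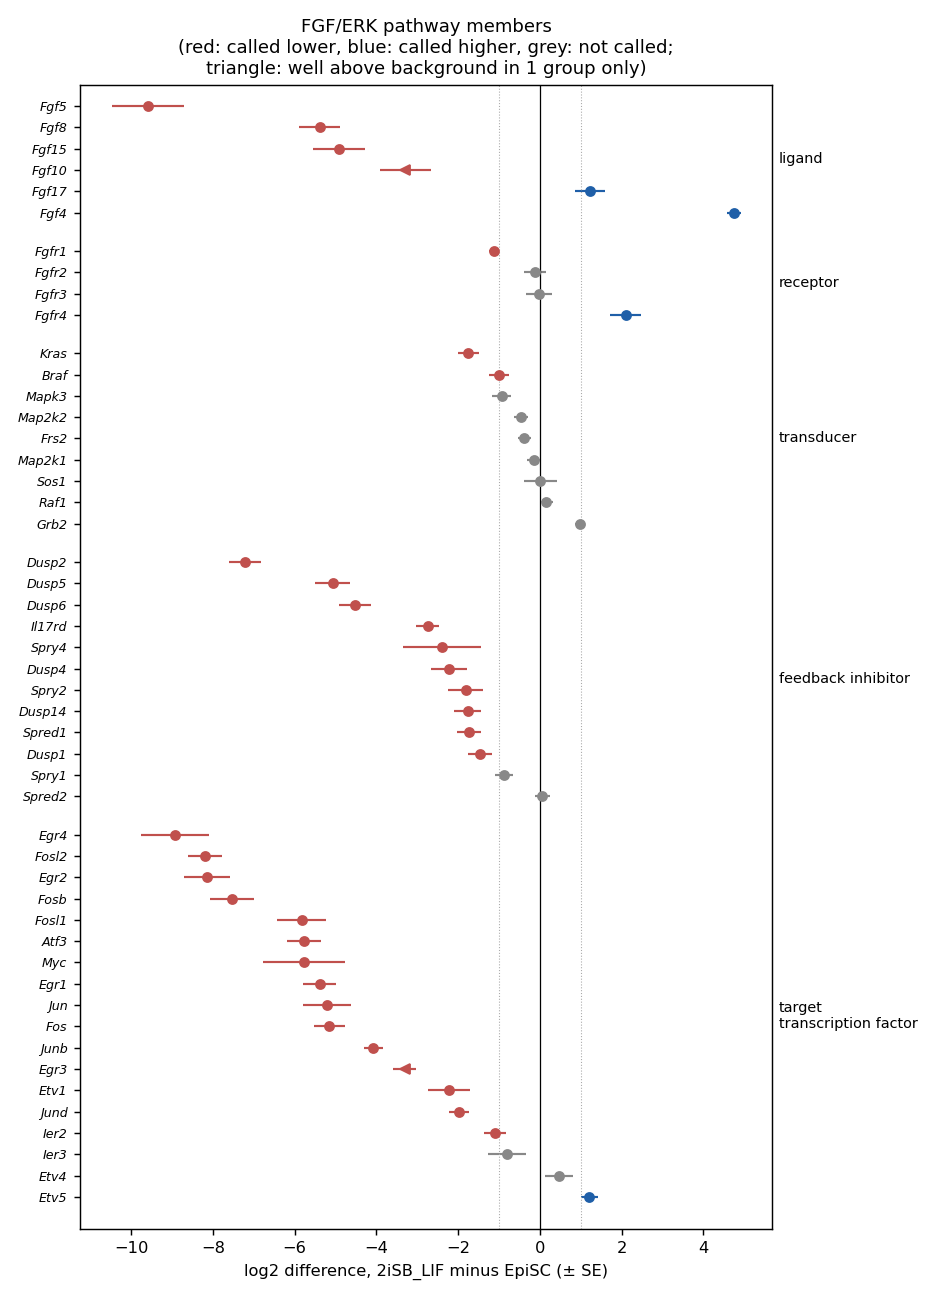
Log2 difference, 2iSB_LIF minus EpiSC, with its standard error (x axis) for 49 of the 50 tested members of the FGF/ERK list, grouped by role (y axis); dotted lines mark 2-fold. Of the 18 target factors 15 are called lower, led by Egr4 at −8.92, most transducers lie within the dotted lines, and Fgf4 is the highest at 4.74.

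None of the 50 members was called between 2iSB_LIF and 2i_LIF, where only 0.105% of all genes were called. Egr1 at −1.38 (adjusted p = 0.41) and Egr2 at −2.02 (adjusted p = 0.32) had the largest differences there among the target factors and feedback inhibitors. Minus EpiSC, the list median was −1.81 for 2i_LIF and −1.40 for LIF_serum, beside −1.79 for 2iSB_LIF. Against LIF_serum, 20 of 50 were lower and 1 higher, with Fosb at −4.35, Egr1 at −2.05 and Dusp2 at −1.86.

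Sequences before the start site are shown for falling ERK targets, because those genes moved together and growth factors are known to act on them through short DNA elements. RefSeq windows of the 250 bases before the start (GRCm38.p6) were found for 22 of the 30 feedback inhibitors and target factors of the list. They were searched on both strands for the CArG box, bound by serum response factor, and for TGACG, the core of the element bound by CREB and ATF proteins. Of the 22 genes 2 held a CArG box (Dusp5 and Egr2), against 1.62% of the 27025 genes in the table, and 9 held TGACG, against 19.8%. A match is only a match of letters, and no binding was measured. The 4 windows shown are those of the genes with the largest falls among members with 1 listed start, no other transcript starting upstream and a match, written 5′ to 3′ in the direction of the gene with matches on either strand in capitals (a TGACG on the other strand reads CGTCA).
Egr4 (chr6:85513590-85513839, minus strand): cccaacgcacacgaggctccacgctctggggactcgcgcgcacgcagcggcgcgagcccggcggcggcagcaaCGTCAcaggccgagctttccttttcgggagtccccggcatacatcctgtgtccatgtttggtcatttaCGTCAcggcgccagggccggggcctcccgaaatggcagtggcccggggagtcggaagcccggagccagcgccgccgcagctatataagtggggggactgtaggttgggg
Atf3 (chr1:191183334-191183583, minus strand): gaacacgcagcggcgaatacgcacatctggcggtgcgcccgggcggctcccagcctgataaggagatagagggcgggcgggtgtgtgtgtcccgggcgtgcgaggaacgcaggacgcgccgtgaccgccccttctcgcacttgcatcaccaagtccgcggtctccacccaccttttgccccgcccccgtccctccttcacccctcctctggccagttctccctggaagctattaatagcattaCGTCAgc
Fos (chr12:85473640-85473889, plus strand): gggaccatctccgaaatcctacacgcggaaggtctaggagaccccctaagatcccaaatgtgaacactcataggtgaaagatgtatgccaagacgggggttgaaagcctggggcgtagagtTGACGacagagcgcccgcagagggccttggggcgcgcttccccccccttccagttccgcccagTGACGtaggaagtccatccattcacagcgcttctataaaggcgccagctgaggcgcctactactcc
Dusp5 (chr19:53528895-53529144, plus strand): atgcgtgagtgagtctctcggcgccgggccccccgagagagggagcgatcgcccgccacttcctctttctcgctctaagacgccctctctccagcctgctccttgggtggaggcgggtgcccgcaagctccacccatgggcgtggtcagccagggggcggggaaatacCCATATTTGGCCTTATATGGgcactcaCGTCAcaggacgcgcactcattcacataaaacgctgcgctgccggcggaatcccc

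The Dusp5 window carries both CArG boxes side by side, starting 82 and 72 bases before the start, with a TGACG match beginning 55 bases before it. Egr4 has its matches at 177 and 109 bases, Fos at 129 and 66, and Atf3 at 7. Nothing is read from genes without a match.

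Naive pluripotency genes rose in 20 of 22 cases with none lower, and their median was 6.88. Of the 22, 3 were above background on no EpiSC array and passed the filter through 2iSB_LIF alone. On probes above background on all 8 arrays 18 members remain, 16 of them higher and none lower, with a median of 5.74. Zfp42 went from −2.50, −1.63, −1.93 and −2.11 to 6.77, 6.80, 7.31 and 6.47 (8.88 ± 0.33). Tfcp2l1, a LIF-responsive factor, rose by 7.51 and the nuclear receptor Nr5a2 by 7.73. Nr0b1, or Dax1, rose by 6.27, from −1.71, −2.28, −1.99 and −2.12 to 3.44, 4.51, 4.43 and 4.60, with 2iSB_LIF array 1 the lowest of its group. Prdm14, which represses differentiation and DNA methylation genes, rose from −7.85, −6.13, −6.60 and −6.14 to 3.31, 3.92, 4.16 and 3.85 (10.49 ± 0.33), with 1 of 4 EpiSC arrays above background. Dppa3, the maternal factor Stella, was above background on no EpiSC array and at least 582-fold higher in 2iSB_LIF.

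Krüppel-like factors had smaller differences than the list median. Klf2 rose by 1.16, from 4.74, 4.99, 4.69 and 5.59 to 6.18, 6.14, 6.33 and 5.99, and lost its call with arrays centred on the median. Klf5 rose by 1.76, and Tbx3, which is a T-box factor and not of this family, by 4.60. Klf4 read 3.80, 3.79, 3.84 and 4.18 against 4.34, 4.51, 4.67 and 4.77 (0.67 ± 0.28, adjusted p = 0.055, not called). Gbx2 read −0.03, 0.30, 0.44 and −0.10 against −0.78, −0.61, −0.44 and 0.64, groups that overlapped (−0.46 ± 0.93). It was called lower with slide as a block. Nanog rose from 2.08, 2.40, 1.82 and 2.49 to 3.97, 4.49, 4.40 and 4.48 on its brightest probe (2.14 ± 0.24), but its other probe read −0.43, and the mean of both was not called.

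Among the core factors, Pou5f1, or Oct4, was at 5.67, 5.75, 5.64 and 5.60 in EpiSC and 5.37, 5.72, 5.54 and 5.69 in 2iSB_LIF, a difference of −0.09 ± 0.16 (adjusted p = 0.67), so both groups carried this defining marker of pluripotent cells. Sox2 rose from 2.49, 2.21, 2.17 and 2.40 to 4.05, 4.40, 4.53 and 4.11 (1.95 ± 0.16). The RNA-binding proteins Lin28a and Lin28b, which block let-7 maturation, fell by 2.48 and by 2.88 on the log2 scale. Of the 10 core genes 2 rose and 2 fell.

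Primed epiblast genes fell in 13 of 15 cases, with none higher and a median of −3.36. Pou3f1, or Oct6, went from 4.84, 5.23, 5.16 and 4.65 to −1.54, −1.33, −1.75 and −0.90 (−6.35 ± 0.27, adjusted p = 7.5e-11). N-cadherin, Cdh2, differed by −4.63 and Sox3 by −1.82, a call that Sox3 lost with passage as a covariate. The 2 members not called were Otx2 and Zic2. Otx2, a homeobox factor needed to enter the primed state, read 4.33, 3.22, 3.51 and 4.14 in EpiSC and 3.61, 4.66, 4.83 and 4.04 in 2iSB_LIF (0.48 ± 0.36), and the groups overlapped. Zic2 differed by −0.52 ± 0.57. With slide as a block Otx2 was called higher, against the direction of the list, and Zic2 was called lower. Zic2 was also called lower within slide 2.

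Of 11 tested primitive streak genes of 16, 7 fell and 1 rose, and 5 fell without EpiSC array 1 or with passage as a covariate. Of the 11, 1 was above background on no 2iSB_LIF array and 3 on 1 to 3 of them, so these passed the filter through EpiSC alone. On probes above background on all 8 arrays 7 members remain, 3 lower and 1 higher, with a median of −0.87 against −2.55. T, or Brachyury, stood at 1.33, −1.37, −0.92 and −0.90 in EpiSC with array 1 above the others, and at −7.22, −4.64, −6.69 and −5.47 in 2iSB_LIF (−5.55 ± 0.72, 1 of 4 arrays above background). Wnt3, an inducer of the streak, was at least 17.3-fold lower. Eomes differed by −1.15 and was called in the full data but neither without EpiSC array 1 nor with passage as a covariate. Gsc, the organizer gene goosecoid, rose by 1.76, from 1.94, −0.90, −0.43 and 0.21 to 1.55, 2.37, 2.86 and 1.08, with overlapping groups, and lost its call under 2 alternatives (arrays centred on the median and passage). EpiSC array 1 was also the highest of its group for Foxa2 (2.77, against −0.54, 0.45 and 0.49), Cer1, Fgf8, Wnt3 and Eomes.

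Genes of primitive endoderm moved both ways, 8 of 13 lower and 2 higher. On probes above background on all 8 arrays 7 members remain, 4 lower and 2 higher. The collagen Col4a1 (−4.53) and the laminin Lamb1 (−3.55) fell, whereas the laminin Lama1 went from 0.26, −0.43, −0.36 and −0.59 to 4.16, 4.33, 4.33 and 3.35 (4.32 ± 0.39). Hnf4a, a factor of visceral endoderm, rose by 4.10. The endoderm factors Gata4 (−0.65 ± 0.69) and Gata6 (−1.23 ± 0.83) were not called. Of 8 tested trophectoderm genes 5 rose and 1 fell, led by Tfap2c (4.83), which is also a germ cell factor, and Cdx2 was not above background in either group. Neural genes were divided, with 3 of 11 higher and 3 lower. Pax6 rose by 3.31, from −4.72, −4.67, −3.57 and −4.25 to −1.70, −1.22, −0.89 and −0.12, and the radial glia marker Fabp7 was at least 47-fold lower.

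Germ cell genes rose in all 14 tested of 15, with a median of 7.71, or 6.23 when the 9 genes below background in EpiSC are put at their bounds. Those 9 passed the filter through 2iSB_LIF alone. On probes above background on all 8 arrays 3 members remain, with a median of 2.01. Dazl, an RNA-binding protein of germ cells, was at 1.97, 2.31, 2.89 and 0.80 in 2iSB_LIF and above background on no EpiSC array, at least 230-fold higher. Mael, of the piRNA pathway, was at least 485-fold higher and the helicase Ddx4, or Vasa, at least 77.4-fold. Sycp3, of the synaptonemal complex, rose from −6.03, −5.31, −6.11 and −5.83 to 2.35, 1.83, 1.55 and 1.50 (7.63 ± 0.31), with 2 of 4 EpiSC arrays above background. Genes of the two-cell-like state varied among the 2iSB_LIF lines. Zscan4f read −0.72, −3.0, −2.89 and 1.60, at least 24.2-fold above EpiSC, and its probe may read the other Zscan4 copies. Between 2iSB_LIF and 2i_LIF none of the genes in these lists was called, beside 0.105% of all genes.

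Of 10 DNA methylation enzymes and cofactors 4 rose and 2 fell. The de novo methyltransferases Dnmt3a (2.13, 2.18, 2.15 and 2.17 in EpiSC, 0.05, −0.45, −0.38 and 0.35 in 2iSB_LIF) and Dnmt3b (−1.76 ± 0.40) fell. Their cofactor Dnmt3l rose by 5.22 ± 0.16, from −2.58, −2.47, −2.50 and −2.71 to 2.89, 2.38, 2.50 and 2.82. Of the dioxygenases that oxidise methylcytosine, Tet1 rose by 2.51 ± 0.32 and Tet2 by 2.32 ± 0.25, while Tet3 was not called (0.31 ± 0.22, its probes from −1.24 to 0.31). Dnmt1 and its partner Uhrf1 were not called.

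The LIF receptor Lifr rose by 3.17, from −0.39, −1.0, −1.02 and −1.14 to 2.34, 2.47, 2.59 and 1.74, and the LIF target Bcl3 by 2.71. Stat3 differed by 0.15 ± 0.16 and Socs3, the feedback inhibitor of LIF signalling, by 0.96 ± 0.12, just short of 2-fold. The oncostatin receptor Osmr was at least 85.5-fold lower. Of 15 members of the LIF/STAT3 list 3 rose and 3 fell. Of 9 targets of beta-catenin, which GSK3 inhibition stabilises, 3 rose and 3 fell. Cdx1 (2.80) and Notum (2.16) rose, Lef1 (−2.57) fell and Lgr5 was at least 11.2-fold lower. Axin2 rose from −3.10, −4.67, −3.75 and −4.27 to −2.44, −2.45, −2.50 and −2.50 (1.48 ± 0.47, adjusted p = 0.015), and its call was lost without EpiSC array 2 and under 7 other settings. In the BMP list 6 of 14 fell and 3 rose, with Id1 at −2.08 and Id2 at −4.30, while Bmp4 rose by 1.95. Id1 lost its call with passage as a covariate.

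Of 9 threonine and one-carbon enzymes 2 rose and 2 fell. Without the 2-fold minimum all 9 had an adjusted p under 0.05, 4 higher and 5 lower, beside 8380 of all 15258 genes. Threonine dehydrogenase, Tdh, which feeds glycine and acetyl-CoA in mouse naive cells, rose from −0.33, −1.02, −1.02 and −0.88 to 6.78, 7.99, 8.39 and 7.72, and Gcat, the next enzyme of that route, by 2.22. The serine-synthesis enzyme Phgdh fell by 1.23, a call lost within slide 2. Of 17 glycolysis genes 3 rose and 1 fell, and the rises were Ldhb (2.52), Pfkp (2.51) and Hk1 (2.15). Of 11 cholesterol genes 1 rose, Fdft1 (1.11), and its call was lost with arrays centred on the median and within slide 2. Of 14 tested genes of the G1 cell cycle list 2 rose and 5 fell, with a median of −0.46. The cell cycle genes Ccnd2 (−7.40, with 2 of 4 2iSB_LIF arrays above background), Cdk6 (−4.58) and Cdkn1c (−3.73) fell. Cdkn2a, the Ink4a and Arf locus, rose from 2.56, 1.38, 2.39 and 1.53 to 3.96, 3.85, 3.92 and 3.76 (1.90 ± 0.23).

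**Figure D5:**
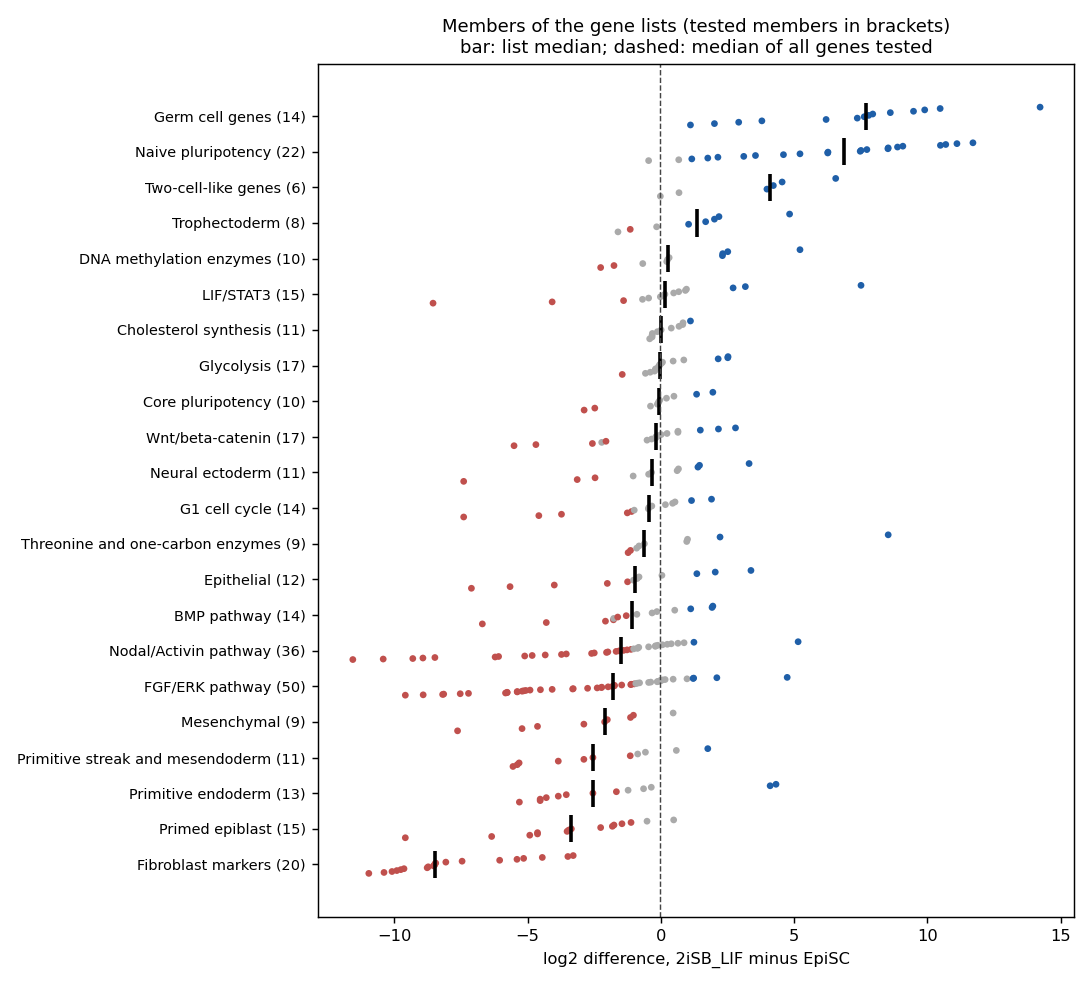
Log2 difference, 2iSB_LIF minus EpiSC (x axis), of every tested member of 22 gene lists (y axis, number tested in brackets), coloured blue where called higher, red where called lower and grey where not called; black bars are list medians and the dashed line is the median of all genes. Germ cell and naive lists lie to the right, with medians of 7.71 and 6.88, and the fibroblast list farthest left at −8.49.

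Fibroblast markers were the list with the lowest median. All 20 fell, with a median of −8.49 as measured and −7.09 with 9 members at their bounds, which passed the filter through EpiSC alone. On probes above background on all 8 arrays 6 members remain, all lower, with a median of −4.80. The median level of the list was 3.14 to 3.66 on the EpiSC arrays and −5.27 to −4.80 on the 2iSB_LIF arrays. The 8 defining markers Dcn, Lum, Postn, Pdgfrb, Prrx1, Twist2, Fap and Thy1 were well above background on all 4 EpiSC arrays, and 6 of them, all but Pdgfrb and Thy1, on no 2iSB_LIF array. Dcn read 4.51, 3.42, 4.50 and 3.61 in EpiSC, with arrays 1 and 3 above arrays 2 and 4. Arrays 1 and 3 were also above arrays 2 and 4 for Twist2 (2.66, 1.96, 2.57 and 1.42). The labels name no feeder layer. How much of the EpiSC signal for matrix, contractile, mesenchymal and TGF-beta ligand genes came from other cells in the EpiSC cultures was not tested, and it stands beside each of them.

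Epithelial genes moved both ways. Cadherin genes exchanged, Cdh1 rising from 1.28, 1.43, 1.89 and 1.51 to 4.22, 3.60, 3.99 and 2.46 (2.04 ± 0.40) as Cdh2 fell. The splicing factor Esrp2 rose by 3.38. Keratins Krt8 (−7.11) and Krt18 (−5.66) and the adhesion molecule Epcam (−2.01) fell, so that 3 of 12 epithelial genes were higher and 5 lower. Of 9 mesenchymal genes 8 fell and none rose, including Vim, from 7.72, 7.50, 7.65 and 7.51 to 4.51, 5.82, 6.38 and 5.23, and Zeb2, at least 62-fold lower (another probe −3.05).

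Sex chromosome transcripts differed among the EpiSC lines and between the groups. The Y-linked Ddx3y read 2.44, 2.88, −1.59 and −2.56 in EpiSC and Eif2s3y 3.09, 3.62, −2.28 and −3.55, so arrays 1 and 2 were high and arrays 3 and 4 low but above background. Xist, the RNA of the inactive X, ran the other way, at −4.40, −4.77, −0.36 and 0.02. On 2iSB_LIF arrays all 3 transcripts were below background. Of 610 X-linked genes tested 190 rose and 106 fell, with a median of 0.39. Of 14644 autosomal genes 2199 rose and 3015 fell, with a median of −0.06. The part that line sex and X inactivation have in the X-linked differences was not tested.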

How the data were processed

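Cy3-labelled RNA of 16 lines was read on Agilent arrays of 1 colour. Groups of 4 were taken from the sample titles. Per the file headers, the intensity used is the processed signal of Feature Extraction 10.7.1.1, which has background subtracted and is not yet scaled across arrays. A log2 table that the authors deposited for the same arrays served as an alternative. How its values were normalized is unstated here.

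Spots marked as outliers (100 to 321 per array) were left out and repeated probes averaged. RefSeq accessions matched 27656 of 55681 probes to 20972 symbols of GRCm38.p6, while the headers name mm9. From log2 values the 75th percentile of the array was subtracted. The filter kept probes that 1 or both of the compared groups showed well above background on every array, and the brightest stood for its gene. Limma 3.58.1 (R 4.3.3, lmFit and eBayes) fitted 4 group means over 16 arrays without a block. Replicate numbers did not pair the samples (correlations of deviations −0.17 to −0.06). Saturated spots numbered 0, and precision is limited by the number of arrays.

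The genes named are the 10 largest rises and falls measured in both groups, the 5 largest bounds each way, and list members. Members and lists were chosen with earlier results of these data known. Of 351 list genes 332 were tested, 17 were not above background in either group and 2 had no named probe. Alternatives covered scaling, background correction, the filter, probe choice, slide, passage, replicate block and each array left out. Some list members are counted but not reported here. The code was tested on simulated data.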

Additional observations from a re-analysis of the deposited data

Results flagged for a closer look

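In 23 of 318 gene and group pairs examined, 1 of the 4 arrays stood apart from the other 3 by more than Dixon's critical value for 4 samples. Chance alone flags about 1 in 20 groups.

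EpiSC array 1 was the highest of its group for Cdh2 (4.65, others 4.02 to 4.10), Eomes (1.54, others 0.14 to 0.31), Fgf5 (4.42, others 3.58 to 3.72), Fst (2.67, others 1.77 to 1.83), Zeb2 (1.19, others 0.62 to 0.65) and Etv5 (5.68, others 5.52 to 5.54). EpiSC array 4 was the highest for Lefty2 (6.82, others 6.49 to 6.53), Klf4 (4.18, others 3.79 to 3.84) and Epcam (2.33, others 1.80 to 1.87), and EpiSC array 2 for Lin28b (4.89, others 4.71 to 4.74). EpiSC array 4 was the lowest for Uhrf1 (5.67, others 5.80 to 5.82).

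Among the 2iSB_LIF lines, array 1 was the lowest for Cdh2 (−2.14, others −0.04 to 0.37), Smad7 (0.45, others 1.34 to 1.40), Nr0b1 (3.44, others 4.43 to 4.60) and Sox3 (0.50, others 1.48 to 1.66), and the highest for Fgfr4 (−0.20, others −1.85 to −1.82) and Pfkp (4.57, others 3.93 to 4.02). Array 3 was the highest for Gdf3 (5.64, others 5.07 to 5.13), Fgf4 (6.56, others 6.31 to 6.32) and Tet2 (3.07, others 3.02). Array 4 was the highest for Pkdcc (0.67, others −1.83 to −1.49) and Atf3 (−0.63, others −2.06 to −1.87), and the lowest for Lama1 (3.35, others 4.16 to 4.33).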

How the results depend on the processing

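The count of 5512 called genes stayed between 4351 (normexp background correction) and 6672 (no filter on dim probes) except under 2 settings. Requiring probes above background on all 8 arrays tested 12874 genes and called 3667, 1930 of them lower, and dropping the 2-fold minimum called 8380, 3804 of them higher. Centring on the median gave 1582 higher and 4848 lower. Leaving out each array gave 5306 to 5673 calls, 2300 to 2525 higher and 3006 to 3156 lower. The replicate block gave 5512 calls, 5469 of them shared, and changed none of the 159 genes followed. With slide as a block 5422 genes were called, and 4846 of the 5512 kept their call. Passage as a covariate gave 5073 and the authors' deposited log2 values 5119.

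No followed gene reversed, and 18 lost their call under at least 1 setting. Within slide 2 those were Nodal, Fgfr1, Foxa2, Axin2, Phgdh, Fdft1, Eif2s3y and Xist. Normexp shrank list medians that rest on dim values, the fibroblast list to −5.57, germ cell genes to 3.83 and two-cell-like genes to 1.19. The planned normexp on mean signals was not run, since the files used here give median signals, which were used instead after the files had been seen. Genes dim on 1 side have only a bound or a difference that depends on background correction.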
